A study of Mus musculus with 8 samples.

Results

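The genes described here are 7 genes that handle excess glucose and its by-products: Akr1b3, Akr1b8, Sord and Khk of the polyol pathway and the fructose route that follows it, Glo1 and Hagh of the glyoxalase system, and Ager, the gene of the glycation receptor RAGE. They were chosen by symbol and make up 7 of the 19301 genes in the deposited expression table. The study sequenced mRNA of mouse tendon-derived stem cells (TSCs), primary cells set free from patellar tendon of C57BL/6J mice with collagenase and grown on plastic in low glucose DMEM with serum. In the low glucose group the cells were kept for 4 days in 5.5 mM glucose with the solvent DMSO. In the high fat, high glucose (HFHG) group they were kept for 4 days in high glucose medium with 300 µM palmitic acid, a saturated fatty acid. There were 4 biological replicates in each group. Because glucose and palmitic acid were changed together, their parts in any difference cannot be told apart. The age and sex of the mice behind these cultures, and whether the replicates came from separate animals, are not given in the sources used here.

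In the polyol pathway, aldose reductase turns glucose into sorbitol at the cost of NADPH, and sorbitol dehydrogenase turns sorbitol into fructose. Fructose can then be phosphorylated by ketohexokinase and split into trioses. Triose phosphates also shed methylglyoxal, a reactive dicarbonyl that modifies proteins. The glyoxalase system removes it in a pair of steps with glutathione, and the advanced glycation end products that form on proteins are bound by RAGE, which is best known from lung.

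Expression was deposited as FPKM, the fragments counted for a gene, scaled to its length and to the size of the library. The whole number of reads behind each value was recovered from the FPKM, and the totals were 35385644 to 37362725 reads in the HFHG libraries and 34308108 to 36308533 in the low glucose libraries. The first principal component (81.0% of the variance) separated the groups, and the next (4.18%) set low glucose replicate 4 apart from the rest. Tendon markers were present, with Col1a1 at 529 FPKM under HFHG against 206 FPKM under low glucose, while the tendon regulator Scx averaged 2.27 and 1.45 FPKM and Tnmd 1.10 and 0.614 FPKM. Of the 9 tendon markers, 8 were higher in HFHG (adjusted p below 0.05 by limma), although the values of Scx overlapped between the groups. Mkx was lower, at 6.73 FPKM under HFHG against 8.62 FPKM under low glucose. Over all genes tested in the data, 34.0% were higher and 30.8% lower at this threshold. The 7 macrophage markers were detected as well, led by Lyz2 at 1637 FPKM under HFHG against 1765 FPKM under low glucose. Without Lyz2 they summed to 92.3 to 97.0 FPKM in HFHG and to 133 to 140 FPKM in low glucose, and 6 of the 7 were lower in HFHG (adjusted p below 0.05 by limma). Of the 7 mesenchymal stromal markers, 6 were higher in HFHG and Cd44 was lower (log2 change -0.13) by the same test. Their summed level was 1083 to 1112 FPKM in HFHG against 712 to 741 FPKM in low glucose. Of the other marker lists, 4 of 5 endothelial genes, 5 of 6 skeletal muscle genes and all 4 adipocyte and 4 epithelial genes stayed below 0.5 FPKM in every library. In bulk RNA, fewer cells of a type and less RNA per cell cannot be told apart, and the part of this difference in cell markers in the changes below was not tested.

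Of the 7 genes, 6 reached at least 0.5 FPKM in at least 4 of the 8 libraries and were compared between the groups together with all 11710 genes that did so. The test was limma on log2(FPKM + 0.1), with Benjamini-Hochberg adjustment over these genes. Khk, Akr1b8 and Glo1 were higher in HFHG, Sord and Akr1b3 were lower, Hagh did not pass the test, and Ager was below the filter. Of all tested genes, 64.8% passed at an adjusted p-value below 0.05, with 34.0% higher and 30.8% lower in HFHG, beside 3 genes up and 2 down among the 6 tested here. The majority among all calls turned with the scaling, since 52.5% of them were higher in the reported fit, 60.9% after rescaling to 1 common sum and 46.7% with median-ratio scaling. The values of the HFHG and low glucose libraries did not overlap in 5 of the 6 tested genes, against 59.2% of all genes tested. None of the 6 tested genes passed the threshold of the study's methods, a log2 change beyond 1 in either direction at an unadjusted p-value under 0.05, which 5.33% of the tested genes did. The median log2 change of the 6 genes was 0.01, and that of all tested genes was 0.02. Changes are given on the log2(FPKM + 0.1) scale, on which those of genes with low values come out too small.

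**Figure D1:**
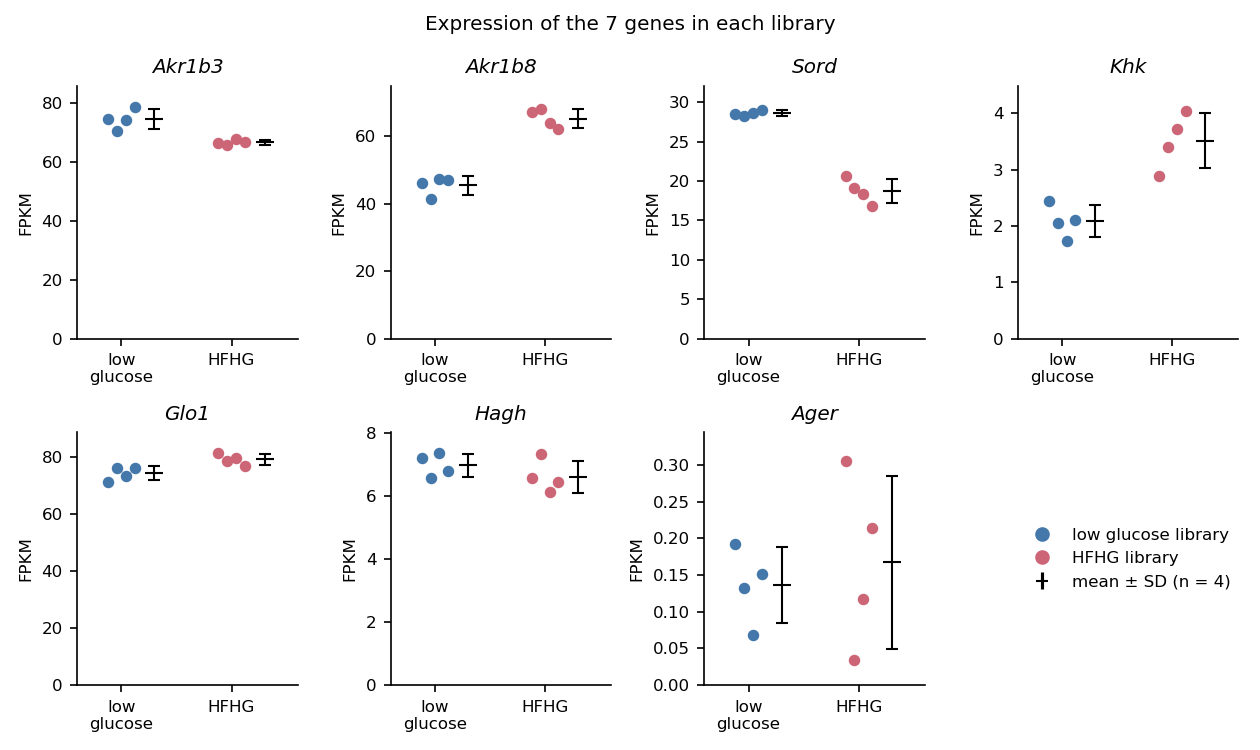
FPKM (y axis, from 0, a separate scale for each gene) of the 7 genes in the 4 low glucose and 4 HFHG libraries, where each point is a library and the bars give the mean ± SD. The groups lie apart in Akr1b3, Akr1b8, Sord, Khk and Glo1 (for Glo1 by 76.2 against 76.7 FPKM at the nearest points) and overlap in Hagh and Ager.

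Akr1b3 (NCBI Gene 11677) encodes aldose reductase of the mouse, the enzyme that opens the polyol pathway. It lies on chromosome 6 of GRCm38, at chr6:34302434-34317478 on the minus strand. Its expression was 66.3, 65.8, 67.8 and 66.7 FPKM in HFHG replicates 1 to 4, against 74.7, 70.5, 74.1 and 78.7 FPKM in low glucose replicates 1 to 4. All HFHG libraries were thus below all low glucose libraries, and the HFHG libraries were close to each other. The mean was 66.6 ± 0.859 FPKM under HFHG (SD, n = 4) against 74.5 ± 3.35 FPKM under low glucose (SD, n = 4). This is a fold of 0.895 (95% interval 0.853 to 0.940), with a log2 change of -0.16 (standard error 0.0324, limma adjusted p = 0.000837). The change was small, since 64.7% of the tested genes had a larger one in absolute log2. The level of Akr1b3 is uncertain, because 74.0% of the stretches of 100 bases in its reference transcript also occur in transcripts of other loci of GENCODE M21, most in the unclassified locus Gm38056, and how the authors assigned such reads is not given in the sources used here.

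Akr1b8 (NCBI Gene 14187), an aldose reductase-like reductase with its own substrate range, lies on the same chromosome at chr6:34354119-34368463 on the plus strand. It had 67.1, 67.9, 63.7 and 62.0 FPKM in HFHG replicates 1 to 4, against 46.2, 41.3, 47.3 and 46.9 FPKM in low glucose replicates 1 to 4. The lowest HFHG library was above the highest low glucose library by more than the range within either group. Mean Akr1b8 went up from 45.4 ± 2.79 to 65.2 ± 2.78 FPKM (± SD, 4 libraries a group), a fold of 1.44 (95% interval 1.34 to 1.54; log2 change 0.52, limma adjusted p = 4.84e-07). Over the 18 other ways of processing, the log2 change lay between 0.48 and 0.58.

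The 2 genes sit in a cluster with Akr1b10 (chr6:34384218-34396950) and Akr1b7 (chr6:34412334-34423142), both on the plus strand. The starts of their coding sequences are shown as an example of how these genes differ. They do not show how reads along the transcripts were assigned. Each sequence is the first 60 coding bases of a GENCODE M21 transcript on GRCm38, at chr6:34317346-34317405 on the minus strand for Akr1b3 and, on the plus strand, at chr6:34354231-34354290 for Akr1b8, chr6:34384342-34384401 for Akr1b10 and chr6:34412410-34412469 for Akr1b7. Each lies in 1 exon, and capitals mark bases that differ from Akr1b3.
Akr1b3: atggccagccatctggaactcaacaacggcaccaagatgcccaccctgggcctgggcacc
Akr1b8: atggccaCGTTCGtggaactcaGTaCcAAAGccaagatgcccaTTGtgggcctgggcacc
Akr1b10: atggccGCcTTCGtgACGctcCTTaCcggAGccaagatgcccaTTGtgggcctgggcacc
Akr1b7: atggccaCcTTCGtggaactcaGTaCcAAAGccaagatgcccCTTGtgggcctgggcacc
In this window, Akr1b8 and Akr1b7 each differ from Akr1b3 at 16 bases and Akr1b10 at 18. Over the whole coding sequence of 951 bases, Akr1b3 and Akr1b8 were identical at 72.5% of the aligned bases, and their longest shared run was 24 bases. Akr1b8 and Akr1b10 were closer, with 85.5% identity and a shared run of 80 bases, yet no stretch of 100 bases of the Akr1b8 transcript occurred in another transcript.

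Akr1b10, named from a list of related genes, was also higher in HFHG, with 21.4, 20.9, 20.4 and 22.2 FPKM in HFHG replicates 1 to 4, against 15.8, 15.7, 17.5 and 15.2 FPKM in low glucose replicates 1 to 4. The groups did not overlap, and the log2 change was 0.40 (limma adjusted p = 8.09e-06). Akr1b7 was below the filter, at 0.0658 to 0.343 FPKM under HFHG against 0.0678 to 0.331 FPKM under low glucose. The neighbours of Akr1b3 that were detected therefore moved in the opposite direction to Akr1b3. The summed FPKM of Akr1b3, Akr1b8 and Akr1b10 was 153 ± 1.98 in HFHG and 136 ± 5.89 in low glucose (SD, n = 4 each). Akr1b3 made up 43.5 ± 1.02% of this sum in HFHG and 54.8 ± 1.10% in low glucose, and Akr1b8 42.6 ± 1.28% and 33.4 ± 0.733% (SD, n = 4 each). The sum and the shares carry the uncertainty given for the level of Akr1b3.

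**Figure D2:**
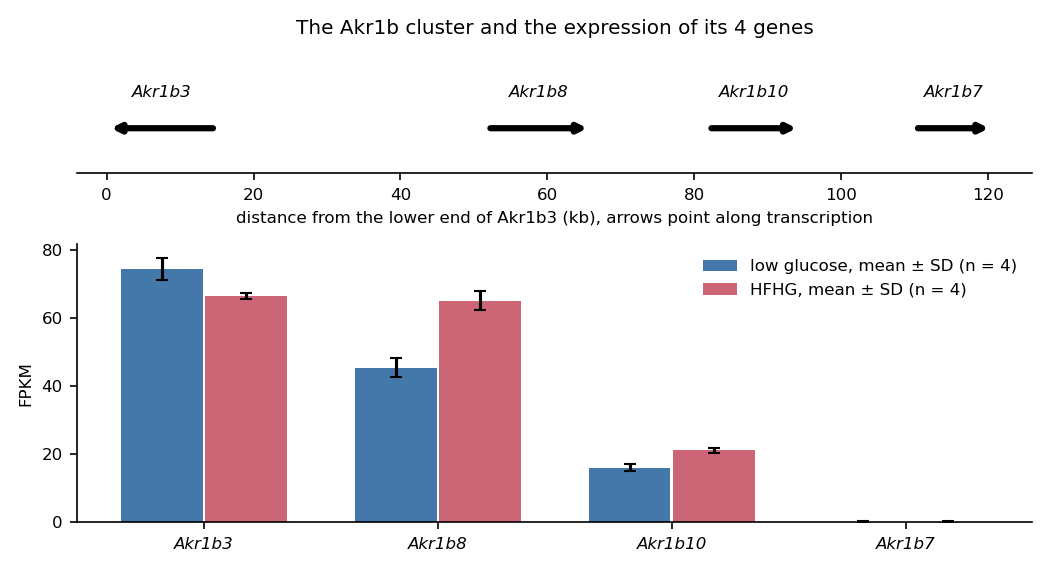
The upper panel maps the 4 genes of the Akr1b cluster by their distance from the lower end of Akr1b3 in kb, with arrows along the direction of transcription, and the lower panel gives the mean FPKM ± SD (n = 4) of each gene in low glucose and HFHG. Akr1b3 was lower in HFHG (66.6 against 74.5 FPKM), Akr1b8 and Akr1b10 were higher, and the bars of Akr1b7 are near 0 because it had 0.170 FPKM under HFHG against 0.169 FPKM under low glucose.

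Sord (NCBI Gene 20322), at chr2:122234749-122265340 on the plus strand, encodes sorbitol dehydrogenase, the step from sorbitol to fructose. It had 20.6, 19.2, 18.3 and 16.9 FPKM in HFHG replicates 1 to 4, against 28.6, 28.3, 28.6 and 29.1 FPKM in low glucose replicates 1 to 4. The low glucose libraries were almost alike, and the highest HFHG library was well below them. Sord fell from 28.6 ± 0.349 to 18.8 ± 1.57 FPKM (SD, n = 4 each), a fold of 0.655 (95% interval 0.606 to 0.707). The log2 change was -0.61 (limma adjusted p = 3.72e-07), and over the 18 other ways of processing it lay between -0.66 and -0.55. In the Sord transcript, 21.2% of the stretches of 100 bases also occur in the processed pseudogene Gm6652, which has no row of its own in the table.

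Khk (NCBI Gene 16548), at chr5:30921431-30931248 on the plus strand, encodes ketohexokinase (fructokinase), which phosphorylates fructose. It had 2.89, 3.41, 3.72 and 4.04 FPKM in HFHG replicates 1 to 4, against 2.44, 2.05, 1.74 and 2.11 FPKM in low glucose replicates 1 to 4. These values rest on 187 to 256 reads per HFHG library and on 107 to 145 reads per low glucose library. The groups did not overlap, although HFHG replicate 1 was nearer to the low glucose libraries than the other HFHG replicates. Mean Khk went up from 2.08 ± 0.285 to 3.51 ± 0.491 FPKM (± SD, 4 libraries a group), a fold of 1.65 (95% interval 1.39 to 1.97). Its log2 change of 0.73 (standard error 0.115, limma adjusted p = 0.000123) was the largest of the 7 genes, and it ranked 1290 among the 11710 tested genes by size. No stretch of 50 bases of its transcript occurred in another transcript of the annotation, so its reads are not shared in that sense.

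The start regions of 6 of the 7 genes were searched on both strands, in RefSeq promoters of GRCm38.p6 that span the bases just before and after the start, for 3 motifs. These were the E-box CACGTG, a site of basic helix-loop-helix factors that include carbohydrate-responsive ones, the core TGGAAA of the tonicity element through which Nfat5 acts on aldose reductase genes, and the core TGACNNNGC of the antioxidant response element. Promoters were matched for Sord, Khk, Akr1b8, Hagh, Glo1 and Ager, and that of Akr1b3 was not analysed here. The windows of 30 bases around the matches in Khk (chr5:30921476-30921505, plus strand) and Glo1 (chr17:30612750-30612779, minus strand) are shown with the motif in capitals, Khk because its change was the largest.
Khk: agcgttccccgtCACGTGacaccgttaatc
Glo1: acaatggcattcTGGAAAatgtagtctcgc
The E-box of Khk begins 71 bases before the start, and 7.15% of all 32851 promoters hold an E-box. The TGGAAA of Glo1 begins 108 bases before the start, and 21.4% of promoters hold these letters. The antioxidant core was found in 1 of 2 Hagh promoters, 20 bases after the start (12.4% of all promoters). Sord, Akr1b8 and Ager held no match of any of the 3 motifs. The searched windows were short, for example chr5:30921309-30921608 for Khk. Starts are those of RefSeq, and those of Khk, Sord, Akr1b8, Glo1 and Hagh lie inside the gene spans given here for them. The windows shown for Khk and Glo1 thus lie inside those spans as well, although they come before the RefSeq starts. A match is a match of letters in a window, and binding was not measured.

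Glo1 (NCBI Gene 109801), at chr17:30584936-30626871 on the minus strand, encodes glyoxalase 1, which turns the adduct of methylglyoxal and glutathione into a thioester. It had 81.4, 78.6, 79.4 and 76.7 FPKM in HFHG replicates 1 to 4, against 71.2, 76.2, 73.3 and 76.1 FPKM in low glucose replicates 1 to 4. The groups were apart only by the gap between 76.2 and 76.7 FPKM. The mean of Glo1 was 79.0 ± 1.95 FPKM under HFHG against 74.2 ± 2.40 FPKM under low glucose (SD, n = 4 each), with a fold of 1.07 (95% interval 1.02 to 1.11; log2 change 0.09, limma adjusted p = 0.0179). This call was lost in 4 of 18 alternatives, among them median-ratio scaling (limma adjusted p = 0.139) and the fits without HFHG replicate 1 (adjusted p = 0.0580) and without low glucose replicate 1 (adjusted p = 0.0632), within a range of 0.000364 to 0.139 over all alternatives. Some of its exons overlap unclassified or pseudogene loci on the opposite strand (418 and 214 exon bases), 90 exon bases overlap 1700097N02Rik on the same strand, and 13.7% of the stretches of 100 bases in its transcript occur elsewhere, most in Gm13443.

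Hagh (NCBI Gene 14651), at chr17:24840143-24864450 on the plus strand, encodes glyoxalase 2, which frees lactate and glutathione from that thioester. It had 6.57, 7.33, 6.12 and 6.45 FPKM in HFHG replicates 1 to 4, against 7.21, 6.57, 7.37 and 6.80 FPKM in low glucose replicates 1 to 4, and the groups overlapped. The mean was 6.62 ± 0.509 FPKM under HFHG against 6.99 ± 0.365 FPKM under low glucose (SD, n = 4 each). The fold was 0.947 with a 95% interval of 0.861 to 1.04 (limma adjusted p = 0.288). The interval holds changes in either direction and reaches further below 1 than above it. The gene length behind its FPKM was 3833 bases, while the longest annotated transcript has 1191 bases and all annotated exons together cover 1908. Its level beside other genes is therefore uncertain. The length itself cancels in the comparison between groups. Which sequence was counted as Hagh is not given in the sources used here, so that comparison may include reads from outside its annotated exons.

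Ager (NCBI Gene 11596), at chr17:34597862-34600936 on the plus strand, was barely detected. It had 0.305, 0.0339, 0.117 and 0.214 FPKM in HFHG replicates 1 to 4, against 0.192, 0.132, 0.0678 and 0.152 FPKM in low glucose replicates 1 to 4. Behind these were 19, 2, 7 and 13 reads in HFHG and 11, 8, 4 and 9 reads in low glucose. The highest and the lowest value both belonged to HFHG libraries. A two-sided exact permutation test, with 70 arrangements of the libraries, gave p = 0.686. Summed over the groups, 41 reads against 32 make a rate ratio of 1.25 with an exact 95% interval of 0.768 to 2.05, which covers counting error only. The HFHG libraries ran from 2 to 19 reads, a spread that the interval leaves out. It therefore does not bound the difference between the groups, and none was detected at this depth.

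**Figure D3:**
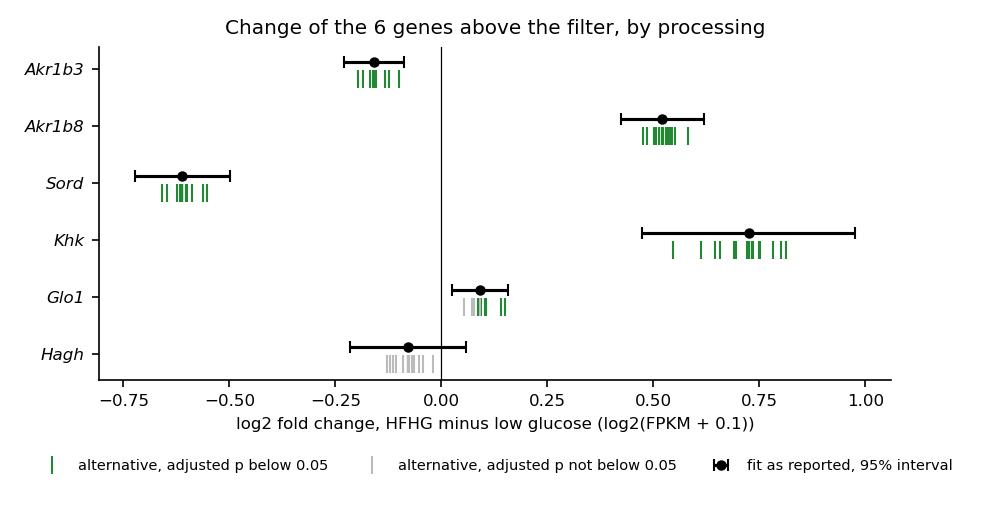
Log2 fold change of the 6 genes above the filter (x axis, HFHG minus low glucose on log2(FPKM + 0.1)), with the reported fit as a black point with its 95% interval and the 18 alternatives as ticks below it, green where the adjusted p-value was below 0.05 and grey where it was not. Akr1b3, Akr1b8, Sord and Khk kept their side of 0 and their call in all 18 alternatives, Glo1 kept its call in 14, and Hagh passed in none.

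FPKM is per length, so the levels of the genes can be set beside each other, apart from the limits given for Akr1b3, Sord, Glo1 and Hagh. For Khk, the length behind the FPKM was 1734 bases, while its longest annotated transcript has 1583. In low glucose, Akr1b3 and Glo1 were highest with overlapping ranges (70.5 to 78.7 and 71.2 to 76.2 FPKM), followed by Akr1b8, Sord, Hagh, Khk and Ager in steps that did not overlap. In HFHG, Glo1 stood above Akr1b3 and Akr1b8, whose ranges overlapped (65.8 to 67.8 and 62.0 to 67.9 FPKM), and the order of the rest was the same. By the mean over the 8 libraries, Glo1 was above 92.7% of the tested genes, Sord above 76.8% and Khk above 25.1%. The spread between replicates was small for Akr1b3 in HFHG (coefficient of variation 1.29%) and Sord in low glucose (1.22%) and larger for Khk, with 14.0% in HFHG and 13.7% in low glucose.

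Ratios between genes within a library do not depend on the scaling of that library. The log2 ratio of Akr1b8 to Akr1b3 was 0.02, 0.05, -0.09 and -0.10 in HFHG replicates 1 to 4, against -0.69, -0.77, -0.65 and -0.75 in low glucose replicates 1 to 4. By FPKM, the 2 reductase genes were thus near the same level in HFHG, while Akr1b8 was the lower one in low glucose. This comparison carries the limit given for the level of Akr1b3. The difference of the ratio was 0.68 on the log2 scale. Sord to Akr1b3 was -1.83 ± 0.128 in HFHG and -1.38 ± 0.0476 in low glucose (SD, n = 4 each), a difference of -0.45. Khk to Sord moved most, from -3.73 ± 0.190 in low glucose to -2.39 ± 0.320 in HFHG (SD, n = 4 each), a difference of 1.34, as its genes changed in opposite directions. These 3 ratios did not overlap between the groups, and each had p = 0.0286 in a two-sided exact permutation test, which cannot go lower with 4 libraries a group (0.0381 after Benjamini-Hochberg adjustment over 4 ratios). They rest on the same values as the changes of the single genes. For Hagh to Glo1, the groups overlapped and the difference of -0.17 did not pass the test (p = 0.114 by the exact permutation test and after adjustment).

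**Figure D4:**
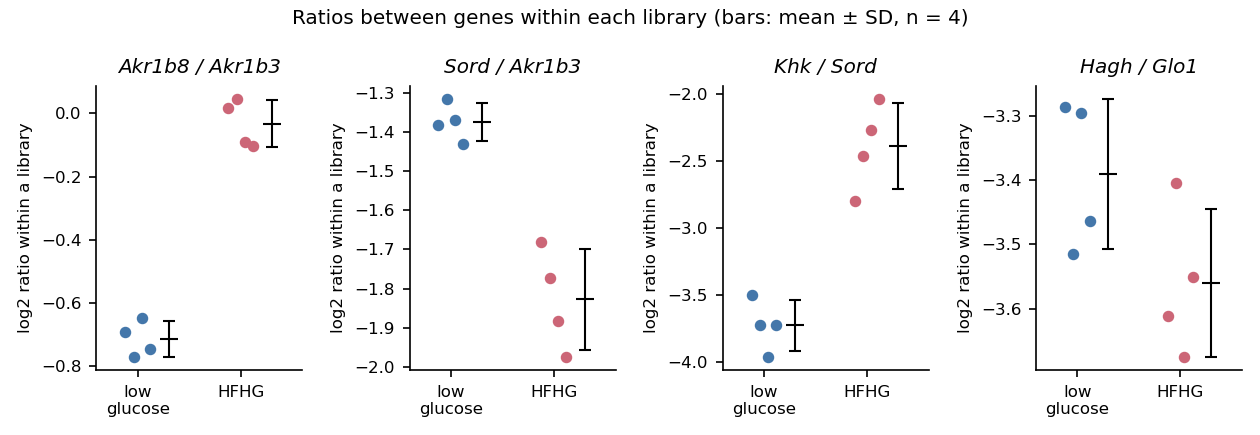
Log2 ratio of 2 genes within each library (y axis, log2(FPKM + 0.1) of the named gene minus that of the other, with a separate scale in each panel) for low glucose and HFHG, where points are libraries and bars the mean ± SD (n = 4). Akr1b8 to Akr1b3 and Khk to Sord were higher in all HFHG libraries, Sord to Akr1b3 was lower in all of them, and Hagh to Glo1 overlapped.

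The 3 tested genes whose log2(FPKM + 0.1) followed that of Khk most closely over the 8 libraries were 1700025G04Rik, Frmd8 and Tbp, the gene of the TATA-binding protein, with Pearson r of 0.989, 0.987 and 0.984. All of them changed less than Khk, with log2 changes of 0.14, 0.12 and 0.24. These points share the difference between the groups, and 74 genes had r above 0.95.

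The other genes of the polyol and fructose route came from a list of 10, of which 7 were above the filter, 4 rose and 3 fell, with a median log2 change of 0.36 among those tested against 0.02 over all genes tested. Over all tested genes 34.0% rose and 30.8% fell. Dcxr, a xylulose and dicarbonyl reductase, had 46.5 to 52.9 FPKM under HFHG against 32.3 to 36.6 FPKM under low glucose (log2 change 0.53, limma adjusted p = 6.31e-07). Tkfc, the kinase of the fructose-derived triose glyceraldehyde, rose with a log2 change of 0.36 (limma adjusted p = 0.000392), from 4.49 to 5.54 FPKM in low glucose to 6.42 to 6.76 FPKM in HFHG. In the other direction, Aldoa, the main aldolase of glycolysis, fell from 949 to 1024 FPKM in low glucose to 680 to 708 FPKM in HFHG, a log2 change of -0.49 (limma adjusted p = 3.71e-09). Akr1a1, aldehyde reductase, had a log2 change of -0.22 (limma adjusted p = 8.00e-06), which turned to 0.05 with quantile normalization. There it passed the test as higher in HFHG, so the direction of its call depended on the scaling. The fructose transporter gene Slc2a5 was below the filter, at 0.145 to 0.389 FPKM under HFHG against 0.0922 to 0.141 FPKM under low glucose, so the groups did not overlap at a very low level.

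Of 14 genes that form or clear dicarbonyls or undo glycation, 10 were above the filter, 5 rose and 3 fell (median log2 change 0.13), beside 64.8% of all tested genes that passed. The 3 that fell were Tpi1, Gapdh and Park7. Tpi1, triose phosphate isomerase, had 606 to 636 FPKM under HFHG against 761 to 826 FPKM under low glucose (log2 change -0.34, limma adjusted p = 2.17e-07). This direction also turned with quantile normalization, to 0.05, where Tpi1 passed the test as higher in HFHG. Gapdh, the next enzyme of glycolysis, had a log2 change of -0.46 (limma adjusted p = 6.01e-08), but its 41.0 to 61.8 FPKM were far below those of Tpi1, and Gapdh is a gene with many near-identical pseudogenes, so its value is uncertain. Park7, which encodes the protein DJ-1, had a log2 change of -0.28 (limma adjusted p = 6.86e-06). Aldh9a1, an aldehyde dehydrogenase, rose from 14.1 to 15.6 FPKM to 19.6 to 20.7 FPKM, with a log2 change of 0.43 (limma adjusted p = 1.20e-06). Fn3krp, a ketosamine kinase that acts on glycated proteins, had a log2 change of 0.32 (limma adjusted p = 0.0204), a call lost with quantile normalization (adjusted p = 0.112), without HFHG replicate 2 (adjusted p = 0.0672) and without low glucose replicate 1 (adjusted p = 0.0571). Its relative Fn3k had at most 0.0491 FPKM in any library.

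Glycation receptors, RAGE ligands and RAGE partners made up a list of 19, of which 17 were above the filter, 7 rose and 6 fell (median log2 change 0.14), again beside 64.8% over all tested genes. Among the receptors, Cd36, a scavenger receptor and fatty acid transporter, had 5.02 to 5.60 FPKM in low glucose and a mean of 11.7 ± 0.487 FPKM in HFHG (log2 change 1.14, limma adjusted p = 1.24e-09). Lgals3, the gene of galectin-3, fell from 846 to 939 FPKM to 517 to 544 FPKM (log2 change -0.75, limma adjusted p = 3.42e-10). Stab1, a scavenger receptor of macrophages and sinusoidal endothelium, had a log2 change of -1.20 (limma adjusted p = 1.66e-07) at 0.815 to 2.25 FPKM. Ddost, a subunit of the oligosaccharyl transferase also known as an AGE receptor, had a log2 change of -0.21 (limma adjusted p = 1.02e-05). Macrophage markers were lower as well, with a median log2 change of -0.31 over the 7 and a range from -0.97 (C1qa) to -0.11 (Lyz2), of which Ptprc did not pass the test (-0.19). Their part in the changes of Lgals3 and Stab1 was not tested.

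The RAGE ligands differed among themselves. S100a4 was abundant and rose from 894 to 962 FPKM to 1472 to 1599 FPKM (log2 change 0.73, limma adjusted p = 5.83e-10). S100a8, a ligand made by myeloid cells, fell from 76.1 to 84.1 FPKM to 28.1 to 32.2 FPKM (log2 change -1.39, limma adjusted p = 3.19e-11), also alongside the macrophage markers. S100a9, the usual partner of S100a8, was listed at 0 in 7 of the 8 libraries and at 0.0530 FPKM in the other, and why the partners differ in this table was not tested. Hmgb1, a nuclear protein that binds RAGE outside the cell, had a log2 change of 0.14 (limma adjusted p = 0.0184), a call lost with median-ratio scaling (adjusted p = 0.0645) and quantile normalization (adjusted p = 0.0692). Diaph1, the formin that binds the tail of RAGE, had 12.3 to 12.8 FPKM under HFHG against 11.8 to 12.8 FPKM under low glucose and did not pass the test (log2 change 0.02, limma adjusted p = 0.648).

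Sorbitol is an osmolyte, and Nfat5 is the factor that switches on aldose reductase and osmolyte transporters in hypertonic medium. Of the 6 genes of this list, all were above the filter, 1 rose and 2 fell (median log2 change 0.01), where 64.8% of all tested genes passed. Nfat5 had a log2 change of 0.11 (limma adjusted p = 0.135), which passed after rescaling to 1 common sum of FPKM (adjusted p = 0.0475) and under voom, run on the recovered reads (adjusted p = 0.0232). The inositol transporter gene Slc5a3 had a log2 change of -0.04 (adjusted p = 0.629) and the taurine transporter gene Slc6a6 one of 0.05 (adjusted p = 0.228), both by limma. Slc6a6 passed after rescaling to 1 common sum (log2 change 0.11, limma adjusted p = 0.0382). Slc6a12, the betaine transporter gene, fell from 7.05 to 7.77 FPKM to 1.82 to 2.06 FPKM (log2 change -1.87, limma adjusted p = 7.66e-11). Slc38a2, an amino acid transporter gene, had a log2 change of -0.29 (limma adjusted p = 2.62e-05) and Hspa4l, a heat shock protein gene, one of 0.30 (limma adjusted p = 0.00146).

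**Figure D5:**
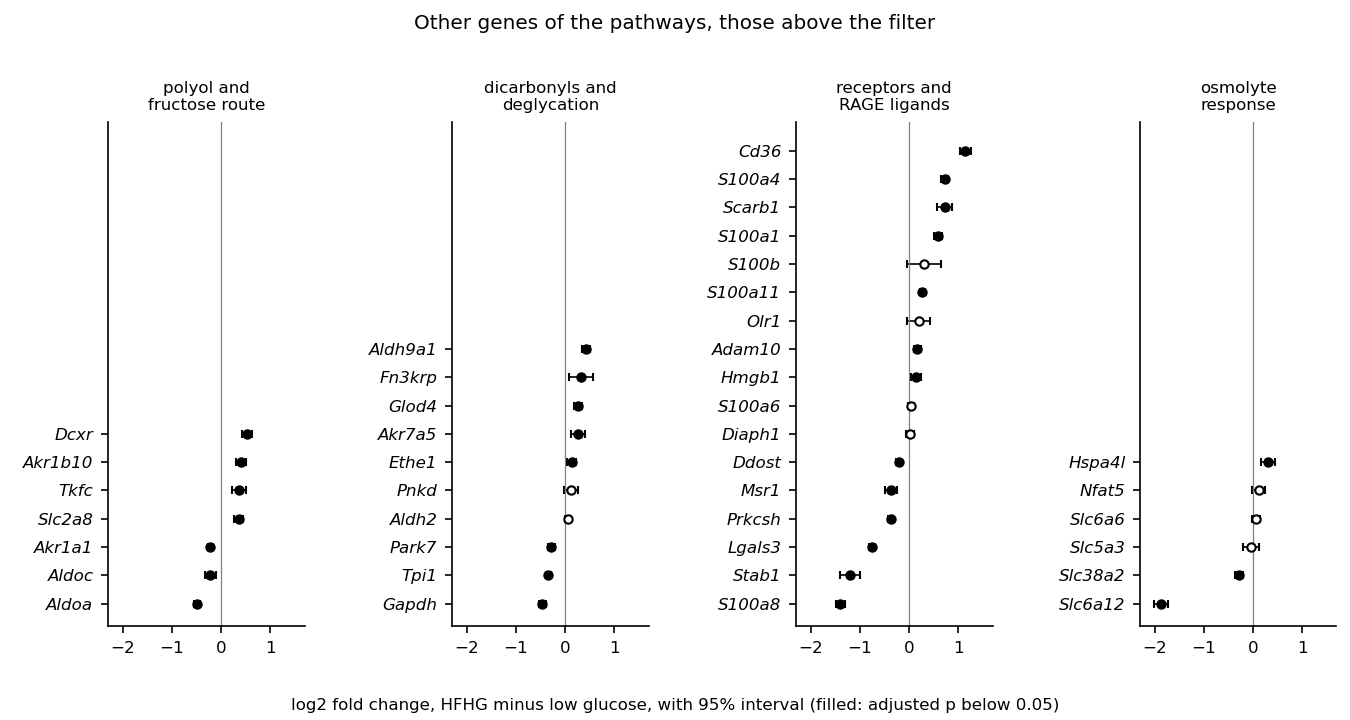
Log2 fold change (x axis, HFHG minus low glucose on log2(FPKM + 0.1)) with its 95% interval for the genes above the filter in the 4 lists of related genes, filled where the adjusted p-value was below 0.05. Each list holds genes on both sides of 0, from Slc6a12 at -1.87 to Cd36 at 1.14.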

How the data were processed

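RNA of 8 TSC cultures was made into stranded mRNA libraries. The submitters' processing notes name HISAT2 2.1.0 and the build mm10, while the counting program, its strand setting and the annotation are not given in the sources used here. The authors deposited FPKM per gene and library, without pooling replicates. Groups came from the sample labels. Reads were recovered as the whole numbers that fit the FPKM of a gene in all 8 libraries (19301 of 19301 genes, within 0.001 reads) and made up at least 99.8% of the totals.

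Genes with at least 0.5 FPKM in at least 4 libraries were tested with limma 3.58.1 in R 4.3.3 (lmFit, eBayes with trend) on log2(FPKM + 0.1), without covariates. The limma p-values set the difference between the groups against the spread within groups, moderated over all tested genes. They hold for these 8 samples, and whether that spread includes differences between animals is not given in the sources used here. Positions come from GENCODE M21, promoters from RefSeq.

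The genes and lists were chosen with earlier results of these data known. Named genes are the 7, a fixed set of their partners, the 3 called genes of each list with the largest absolute log2 fold change, and the 3 most like Khk. Markers were named to check cell types. 1 gene of the fixed set is not reported here. Alternatives were other pseudocounts, filters, scalings, a replicate block, robust eBayes, voom and leaving out each library.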

Additional observations from a re-analysis of the deposited data

Results flagged for a closer look

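In 80 groups of 4 libraries (the named genes and ratios in each condition), 3 had a library that stood apart by Dixon's test at the 95% level, where chance flags about 1 in 20 groups, or 4 of 80. None was among the 7 genes or their ratios. Gapdh in HFHG replicate 4 was at 41.0 FPKM, with the other HFHG replicates at 43.3 to 43.7. Slc38a2 in low glucose replicate 4, the library set apart by the principal components, was at 47.5 FPKM, with the others at 52.2 to 53.0. S100a9 in HFHG replicate 3 was at 0.0530 FPKM, with the others listed at 0.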

How the results depend on the processing

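Of 540 log2 fold changes recomputed (30 named genes under 18 alternatives), 523 kept their direction and call. All 40 recomputed ratios kept the direction of their difference. With other pseudocounts they also stayed on the same side of 0.05 in the exact permutation test, and the size of the difference was not compared there. With 1 library left out, the difference moved by no more than the pooled SD within groups. The 7 genes held 3 calls up and 2 down, and the up count fell to 2 wherever Glo1 lost its call. Akr1a1 (0.0477) and Tpi1 (0.0473) reversed with quantile normalization, and both passed the test there as higher in HFHG. The other reversals did not pass the test. They were Slc5a3 with rescaling to 1 sum of FPKM (0.0159) and without HFHG replicate 2 (0.00327, in a range of -0.0628 to 0.00327 over fits that left out 1 library), and Diaph1 with median-ratio scaling (-0.0150). The cause of the reversals was not tested. The osmolyte list had 1 gene up, but 3 after rescaling to 1 sum and 2 with voom. Fn3krp lost its call with quantile normalization (adjusted p = 0.112 by limma). Libraries of equal replicate number did not deviate together (correlation of deviations between -0.0736 and -0.0056). This does not tell whether the cultures were paired by design. A replicate block ended the call of Glo1 (adjusted p = 0.0505 by limma) and left 2 genes up and 2 down. Depth limits Ager, with at most 19 reads in a library.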

Other observations

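Among the HFHG libraries, Khk and Sord ranked in exactly opposite order. Both also followed the replicate number, Khk upward and Sord downward, so the order cannot be told apart from a trend along the replicates. The library with the lowest Khk (2.89 FPKM) had the highest Sord (20.6 FPKM), and the library with the highest Khk (4.04 FPKM) had the lowest Sord (16.9 FPKM). In low glucose the order was not opposite, since Sord was 28.6 FPKM both in the library with the highest Khk (2.44 FPKM) and in that with the lowest (1.74 FPKM), within 28.3 to 29.1 FPKM over the group. With 4 libraries in a group this order was not tested.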
